A study of Homo sapiens with 4 samples.

Results

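The mitosis and spindle checkpoint genes described here are 34 genes whose products drive cells through mitosis, followed in MDA-MB-231 cells after knockdown of hTrmt13. They were chosen by symbol from a list of mitotic regulators. The rule uses no measured value, but the list was drawn up with earlier results of these data known. All 34 were found among the 28930 gene symbols of the deposited count table, and all 34 were among the 13022 genes with enough counts to be tested. MDA-MB-231 is a human triple-negative breast cancer line with mesenchymal features. The control group is labelled as control and the knockdown group as siRNA knockdown of hTrmt13, the tRNA methyltransferase encoded by TRMT13. Each group held 2 libraries, numbered 1 and 2 in the labels, all made from total RNA of the same line. The labels do not state whether the replicates came from separate cultures, so a p-value here reflects the spread among these libraries only, which may be technical. Neither the siRNA sequences nor the doses and times after transfection were known here. At issue here is how the transcripts of mitosis stand once hTrmt13 is depleted.

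Entry into mitosis is driven by CDK1 bound to cyclin A or B, after CDC25 phosphatases have removed inhibitory phosphates. The spindle checkpoint holds the anaphase-promoting complex in check until every kinetochore is attached, and its release lets CDC20 direct the destruction of securin and cyclin B. Most of these genes are transcribed late in the cell cycle, and their summed transcript level is widely used as a measure of proliferation. Their promoters are known for the CHR element (cell cycle genes homology region), bound by MuvB complexes, and for CCAAT boxes, bound by NF-Y. FOXM1 and B-Myb act with MuvB complexes on such promoters.

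Promoter letters of the set are described next, and whether a motif goes with a gene's pattern over the 4 libraries was not tested. RefSeq promoter sequences (GRCh38.p14) were matched by symbol for 28 of the 34 genes. The others were AURKA, TTK, FOXM1, BIRC5, TPX2 and UBE2C. In the 250 bases before the most upstream RefSeq start, the CHR letters TTTGAA or TTCGAA, searched on both strands, were present in 16 of 28 genes (57.1%), against 14.6% of 27305 genes in the same table. Within 50 bases of the start, a distance chosen after the positions were seen, they were present in 10 of 28 genes (35.7%), against 2.45% of all genes. CCAAT on either strand was present in 21 of 28 genes against 33.03% of all genes, and at 2 or more places in 14 of 28 against 10.03%. CDC25B, CDC25C, CENPE, NDC80 and NUF2 held neither motif in this window. Other start sites of a gene were not searched, so a motif near one of those would be missed.

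In all 10 genes with a CHR within 50 bases, the one nearest to the start read TTTGAA on the strand of the gene. These 10 sites are given 5′ to 3′ on the gene's strand, 30 bases each, with this nearest CHR in capitals. They are ordered from the CHR closest to the start (10 bases upstream in INCENP) to the farthest (31 bases in ESPL1). In ANLN and HMMR a further CHR match, in lower case, lies directly before the capitals, 26 and 28 bases upstream of the start. A match is a description of the letters and was not tested for binding.
INCENP, chr11:62123989-62124018, plus strand: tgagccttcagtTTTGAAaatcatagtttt
CENPA, chr2:26786026-26786055, plus strand: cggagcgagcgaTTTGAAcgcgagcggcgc
ANLN, chr7:36389830-36389859, plus strand: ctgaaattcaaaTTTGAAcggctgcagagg
PRC1, chr15:90994538-90994567, minus strand: cccgtggcgcggTTTGAAattttgcggggc
HMMR, chr5:163460598-163460627, plus strand: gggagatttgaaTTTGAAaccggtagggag
BUB1B, chr15:40161034-40161063, plus strand: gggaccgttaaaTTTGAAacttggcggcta
CCNB2, chr15:59105105-59105134, plus strand: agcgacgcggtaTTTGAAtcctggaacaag
MKI67, chr10:128126435-128126464, minus strand: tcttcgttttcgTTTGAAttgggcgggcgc
PLK1, chr16:23678848-23678877, plus strand: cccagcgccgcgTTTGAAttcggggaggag
ESPL1, chr12:53268256-53268285, plus strand: cagccgcggataTTTGAAaggagggtctgg

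**Figure D1:**
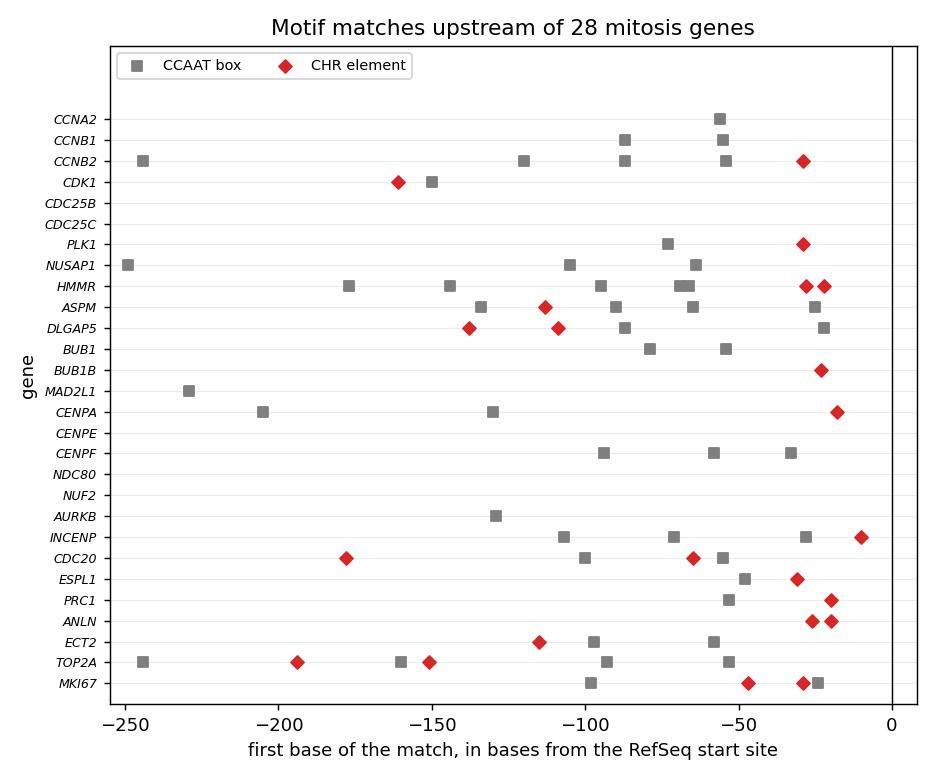
Positions of CHR elements (red diamonds) and CCAAT boxes (grey squares) upstream of 28 mitosis genes; the x axis is the first base of a match in bases from the RefSeq start site, and each row is a gene. CHR matches lie within 50 bases of the start in 10 genes.

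In 8 of the 10 genes a CCAAT box lay further upstream of this CHR, its first base between 17 bases (ESPL1) and 112 bases (CENPA) before that of the CHR. The 2 genes with none were ANLN and BUB1B. In between, the spacing was 18 bases in INCENP, 25 in CCNB2, 33 in PRC1, 44 in PLK1 and HMMR, and 69 in MKI67.

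Total counts ran from 9777267 to 13098985 per library. TRMT13 had 14.9 and 18.9 CPM (counts scaled to library size with TMM factors) in the control libraries and 3.52 and 4.79 CPM in the knockdown libraries (log2 fold change −2.02, SE 0.34, edgeR adjusted p = 0.0399), below both controls in each knockdown library. Of 13022 genes tested, 389 (2.99%) were called changed by the quasi-likelihood test of edgeR at a Benjamini-Hochberg adjusted p under 0.05. Among markers of the line, VIM, CD44, EGFR, MET, AXL, CAV1 and MSN summed to between 4272 and 6086 CPM, while of 6 genes listed as low or absent ESR1 and PGR had no count in any library, CDH1 reached 0.0951 CPM, and FOXA1, GATA3 and EPCAM lay between 2.19 and 10.98 CPM. Luminal epithelial markers summed to between 304 and 349 CPM, mostly KRT19. Blood cell markers summed to at most 1.12 CPM with 4 of 7 at 0, and fibroblast and endothelial markers to between 20.3 and 53.3 CPM, mostly COL1A1, with DCN at 0.

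The 34 genes were set apart first by replicate number. Together they took 0.152% of the counts in control 1 and 0.0916% in knockdown 1, but 0.386% in control 2 and 0.284% in knockdown 2. Their summed level was thus 2.47-fold higher in control 2 than in control 1 and 3.02-fold higher in knockdown 2 than in knockdown 1. In 33 of 34 genes both libraries numbered 2 lay above both libraries numbered 1, which 19.6% of all tested genes did. From lowest to highest, 31 of the 34 stood in the order knockdown 1, control 1, knockdown 2, control 2, an order that 7.88% of all tested genes had. The exceptions were CDC25B, CENPA and BIRC5.

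In a fit with terms for group and replicate number, 33 of the 34 genes were higher in replicate 2 at an edgeR adjusted p under 0.05, where 12.5% of all tested genes were. Their replicate differences ran from 1.84-fold for INCENP to 6.23-fold for ASPM, and the median over the 34 was 2.92-fold. Adjusted p-values of the 33 ran from 7.10e-10 to 0.000766 in that edgeR test. Each number held a control and a knockdown library, so these p-values reflect how alike the replicate difference was in the groups. They do not measure a spread among repeated runs of a number. ASPM, a spindle pole protein, had 16.4 and 7.99 CPM in the control and knockdown libraries numbered 1, and 94.5 and 54.5 CPM in those numbered 2. CENPE, the kinetochore kinesin, had 14.1 and 5.23 CPM against 59.3 and 39.2 CPM. HMMR, a microtubule-binding spindle protein, had 2.40 and 1.52 CPM against 10.7 and 9.14 CPM, on only 23 and 16 counts in the libraries numbered 1.

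CDC25B, a phosphatase that activates CDK1, was the gene without this difference, at 104 and 83.2 CPM in the libraries numbered 1 and 105 and 75.9 CPM in those numbered 2 (log2 difference −0.06, SE 0.16, edgeR adjusted p = 0.838). The libraries numbered 2 also had the higher total counts, at 12851510 and 13098985 against 9777267 and 10606149. Mitochondrial genes took 4.82% and 5.18% of counts there against 6.88% and 6.25%. The library codes in the titles are adjacent within a number, and the labels do not say what the codes stand for. The part of any of these in the replicate difference was not tested.

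**Figure D2:**
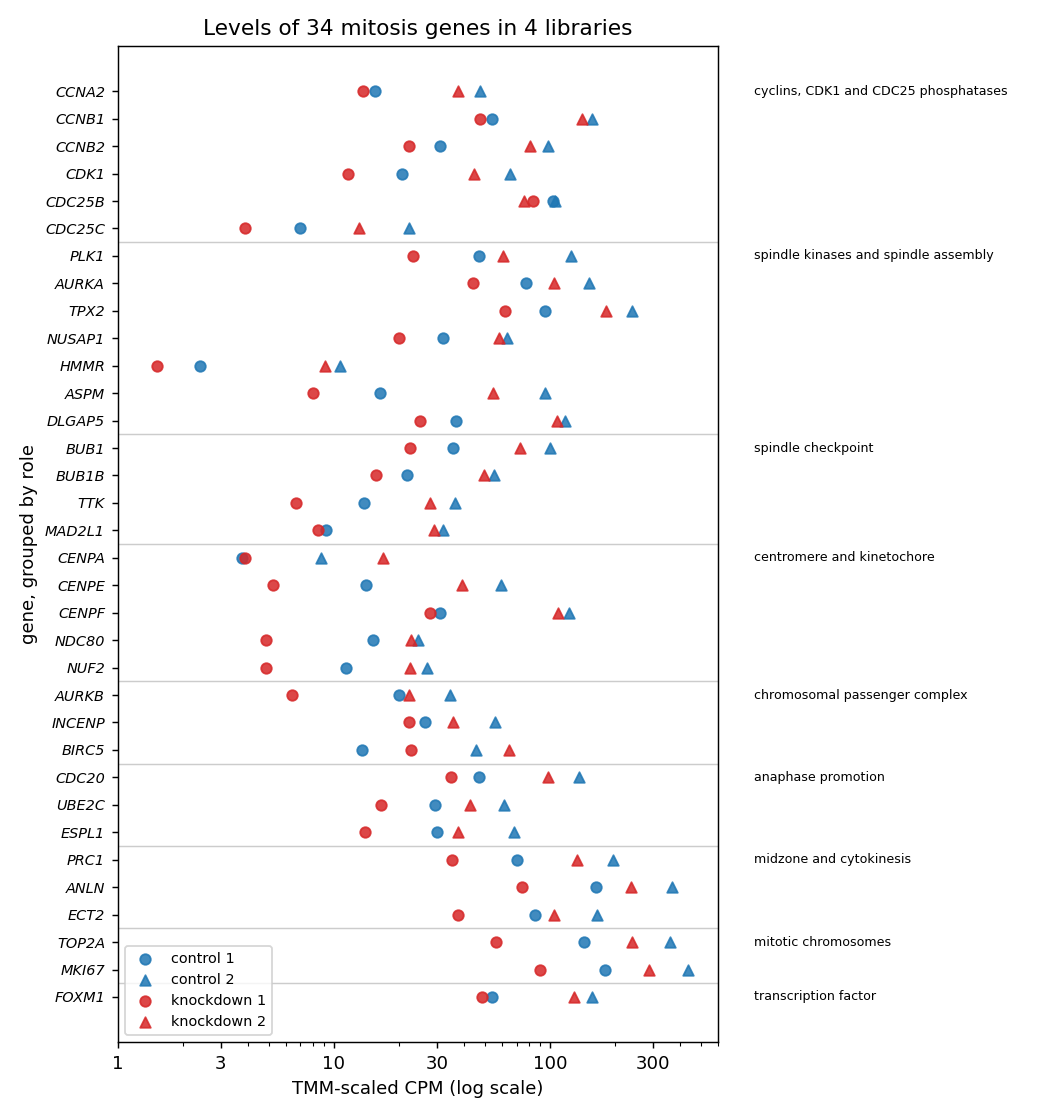
Levels of the 34 mitosis genes in TMM-scaled CPM (x axis, log scale), 1 row per gene grouped by role, with control in blue, knockdown in red, replicate 1 as circles and replicate 2 as triangles. Triangles lie to the right of circles in every row but that of CDC25B, and the red symbol of a number lies left of the blue one except in CENPA and BIRC5.

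Between knockdown and control, the levels of these genes leaned lower within each pair of equal number, by less than they differed between the numbers. Of the 34 genes, 32 had a negative log2 fold change (49.6% of all tested genes did), and the same 32 were lower in the knockdown in both pairs (40.4% of all tested genes). The median log2 fold change was −0.51, against 0.01 over all tested genes, and the median within pair 1 was −0.74 and within pair 2 −0.47. None of the 34 passed the edgeR test of knockdown against control, and 0 had an unadjusted p under 0.05, where 24% of all tested genes did. That test has no term for the replicate number, so the difference between the numbers enters the spread within each group. The 0 is therefore not read as less change than in other genes. The DESeq2 Wald test and limma-voom also called 0. The calls depended on the fit. With no filter on low counts edgeR called 5 of the 34 lower (PLK1, ESPL1, ANLN, ECT2 and TOP2A), when 10.5% of 18632 genes were called. With the replicate number as a block it called 23 of the 34, 22 lower and 1 higher, when 40.1% of 13022 genes were called. The labels do not say whether a number marks a shared batch. In the main test, without the block, 1.96% of tested genes were called lower and 1.03% higher. Adjusted p-values of the 34 in the main edgeR test ran from 0.302 for CDC25B to 0.933 for MAD2L1. Only CDC25B had both knockdown libraries below both control libraries, a separation shown by 26.8% of all tested genes. In bulk libraries, fewer cells in mitosis and less of these transcripts per cell cannot be told apart.

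Within a pair the ratio of depth-scaled counts can be set against counting error alone. The 95% exact binomial interval of the ratio lay below 1 in both pairs for 22 of the 34 genes (25.2% of all tested genes) and above 1 in both pairs for BIRC5 (23.7% of all tested genes). These intervals cover counting error only and say nothing of the spread between cultures. The sum over the 34 genes stood at 0.594 of control in pair 1 and at 0.725 in pair 2. Leaving out a library unbalances the numbers between the groups, and the median log2 fold change was then −0.998 without control 1, 0.35 without control 2, 0.11 without knockdown 1 and −1.62 without knockdown 2. Of the 34 genes 9, 1, 2 and 6 were called in the same order, beside 5.05%, 5.49%, 6.93% and 5.33% of all genes tested in those fits.

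**Figure D3:**
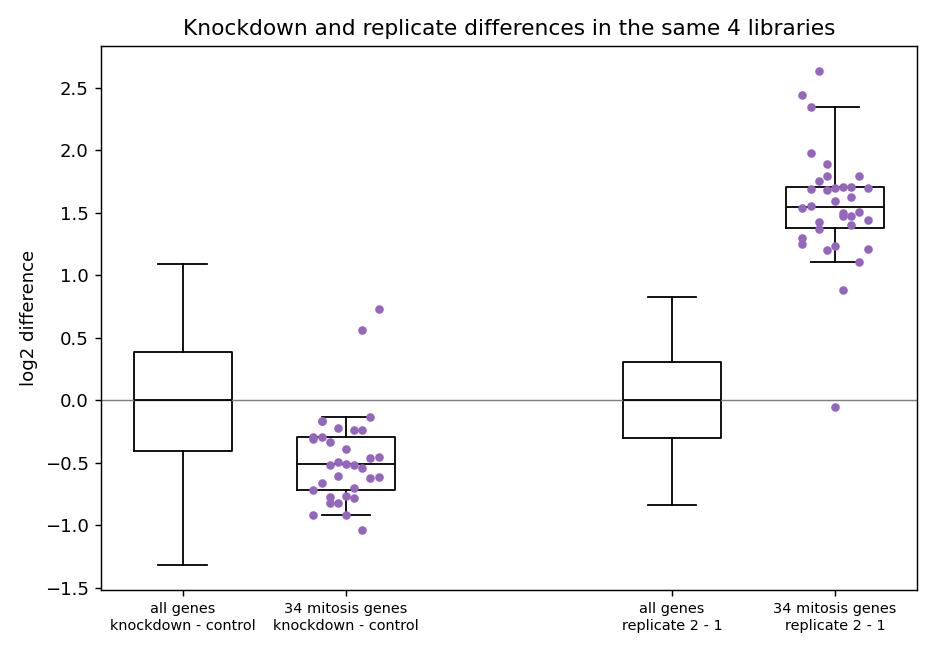
Log2 differences (y axis) of knockdown minus control and of replicate 2 minus replicate 1, from fits over the same 4 libraries; boxes show the quartiles and median, whiskers the 5th to 95th percentile, and points the 34 mitosis genes. The median of the mitosis genes is −0.51 for the knockdown and 1.54 for the replicate number.

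Among the genes of mitotic entry, the 3 cyclins had log2 fold changes between −0.33 and −0.16. CCNB1, which encodes cyclin B1, had 53.7 and 156 CPM in the controls and 47.4 and 140 CPM in knockdown, so that each knockdown library lay just under the control of its number (log2 fold change −0.16, SE 0.61, edgeR adjusted p = 0.903). CCNB2, which encodes cyclin B2, had 31.1 and 98.2 CPM in the controls and 22.3 and 80.4 CPM in knockdown, with ratios of 0.715 and 0.819. CCNA2, which encodes cyclin A2 and overlaps EXOSC9 in the RefSeq annotation, had 15.6 and 47.6 CPM in the controls and 13.6 and 37.4 CPM in knockdown. The groups overlapped for all 3 cyclins, since knockdown 2 lay above control 1.

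CDK1, the kinase that the cyclins activate, had 20.7 and 65.2 CPM in the controls and 11.6 and 44.6 CPM in knockdown. Its ratios were 0.561 in pair 1 (95% counting interval 0.444 to 0.707) and 0.685 in pair 2 (0.615 to 0.761). CDC25C, a second CDK1-activating phosphatase, had 6.99 and 22.3 CPM in the controls and 3.90 and 13.1 CPM in knockdown, with ratios of 0.557 and 0.588. CDC25C overlaps FAM53C and no strand setting of the counting was known here, so reads of such overlapping genes may not be separate. The ratios of CDC25B were 0.803 (0.732 to 0.880) and 0.721 (0.664 to 0.783), the control libraries standing together at the top and the knockdown libraries together below (log2 fold change −0.39, SE 0.21, edgeR adjusted p = 0.302).

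PLK1, the polo-like kinase of spindle assembly and mitotic exit, had the lowest log2 fold change of the 34 genes. It stood at 46.7 and 125 CPM in the controls and at 23.3 and 60.4 CPM in knockdown. The ratios were nearly the same in the pairs, 0.499 (0.426 to 0.585) and 0.482 (0.442 to 0.525), yet knockdown 2 lay above control 1 and the groups overlapped (log2 fold change −1.04, SE 0.57, edgeR adjusted p = 0.322). AURKA, the spindle pole kinase, had 77.5 and 152 CPM in the controls and 44.1 and 105 CPM in knockdown, with ratios of 0.570 and 0.688. Its activator TPX2 had 94.5 and 238 CPM in the controls and 61.8 and 181 CPM in knockdown, with ratios of 0.654 and 0.760.

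The microtubule-binding spindle genes had ratios below 1 in both pairs. ASPM had ratios of 0.487 (0.369 to 0.639) and 0.577 (0.526 to 0.633). DLGAP5, which stabilises spindle fibres, had 36.8 and 118 CPM in the controls and 24.9 and 107 CPM in knockdown, with ratios of 0.676 and 0.912. NUSAP1, a microtubule-bundling protein, had 32.0 and 63.4 CPM in the controls and 20.1 and 57.9 CPM in knockdown, and its ratio of 0.913 in pair 2 was within counting error (0.826 to 1.01). For HMMR the intervals of both pairs included 1, so a difference was not detectable at its depth.

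The 4 spindle checkpoint genes were all among the 32 genes with ratios under 1 in both pairs. TTK, the kinase that starts checkpoint signalling at kinetochores, had 13.8 and 36.4 CPM in the controls and 6.66 and 27.9 CPM in knockdown, with ratios of 0.483 (0.356 to 0.650) and 0.765 (0.666 to 0.878). BUB1, a kinetochore kinase, had 35.6 and 100.3 CPM in the controls and 22.4 and 72.9 CPM in knockdown, with ratios of 0.630 and 0.726. BUB1B, which encodes the CDC20 inhibitor BubR1, had ratios of 0.715 and 0.900, the latter within counting error (0.809 to 1.002). MAD2L1, which encodes the checkpoint effector MAD2, had ratios of 0.921 and 0.908 whose intervals included 1 in both pairs. Their log2 fold changes ran from −0.54 for TTK to −0.14 for MAD2L1, and control and knockdown libraries overlapped for all 4 genes.

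The centromere and kinetochore genes ranged from unequal pairs in NDC80 to equal ones in CENPF. NDC80, which encodes the microtubule-binding Hec1 subunit of the NDC80 complex, had 15.1 and 24.4 CPM in the controls and 4.85 and 22.6 CPM in knockdown. Its ratio was 0.320 in pair 1 (0.228 to 0.444) and 0.925 in pair 2 (0.788 to 1.09), so knockdown 1 alone lay far below the others. NUF2, its partner in the complex, had 11.4 and 27.1 CPM in the controls and 4.85 and 22.4 CPM in knockdown, with ratios of 0.426 and 0.827. CENPE had ratios of 0.371 (0.266 to 0.511) and 0.662 (0.591 to 0.740). CENPF, a kinetochore and nuclear matrix protein, had 31.1 and 122 CPM in the controls and 27.8 and 109 CPM in knockdown. Its ratio was 0.893 in pair 1, within counting error (0.757 to 1.05), and 0.892 in pair 2 (0.830 to 0.958).

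CENPA, the centromeric histone H3 variant, was 1 of 2 genes with a positive log2 fold change. It had 3.76 and 8.74 CPM in the controls and 3.90 and 16.9 CPM in knockdown, so that knockdown 2 lay above the other 3 libraries. Its ratio was 1.04 in pair 1 (0.647 to 1.67, on 36 and 41 counts) and 1.94 in pair 2 (1.54 to 2.45), and the log2 fold change was 0.73 (SE 0.70, edgeR adjusted p = 0.571). The log2 fold change of CENPA was 1.43 without knockdown 1 and −0.69 without knockdown 2. Both fits unbalance the replicate numbers between the groups.

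The chromosomal passenger complex corrects faulty attachments through the kinase AURKB, held on the scaffold INCENP together with BIRC5, also known as survivin. AURKB had 19.9 and 34.4 CPM in the controls and 6.37 and 22.3 CPM in knockdown, with ratios of 0.320 (0.238 to 0.424) and 0.648 (0.558 to 0.753). INCENP had 26.4 and 55.8 CPM in the controls and 22.2 and 35.4 CPM in knockdown, with ratios of 0.839 (0.699 to 1.01) and 0.634 (0.564 to 0.713). The ratios of BIRC5 were above 1. It had 13.5 and 45.5 CPM in the controls and 22.6 and 64.6 CPM in knockdown, each knockdown library above the control of its number, with ratios of 1.68 (1.35 to 2.10) and 1.42 (1.28 to 1.58). The log2 fold change of BIRC5 was 0.56 (SE 0.65, edgeR adjusted p = 0.643), and the groups overlapped, with control 2 above knockdown 1. With a library left out, the log2 fold change of BIRC5 was 1.70 without control 2 and 1.14 without knockdown 1. It was −0.05 without control 1 and −0.39 without knockdown 2. Each of these fits unbalances the replicate numbers between the groups.

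**Figure D4:**
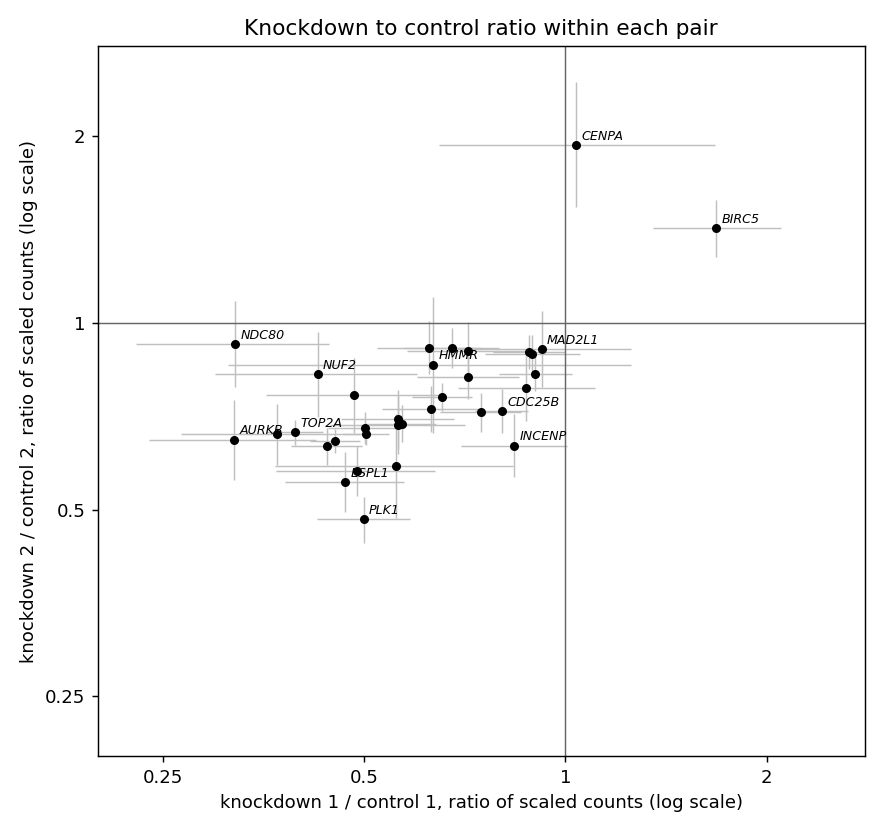
Knockdown to control ratio of depth-scaled counts in pair 1 (x axis) and pair 2 (y axis), both on log scales, for the 34 mitosis genes; lines are 95% exact binomial counting intervals. All but BIRC5 and CENPA lie below 1 on both axes, NDC80 at 0.320 and 0.925 and PLK1 at 0.499 and 0.482.

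The genes of anaphase onset had ratios below 1 beyond counting error in both pairs. ESPL1, which encodes separase, the protease that cleaves cohesin, had 29.9 and 68.0 CPM in the controls and 13.98 and 37.7 CPM in knockdown, with ratios of 0.468 (0.381 to 0.573) and 0.554 (0.496 to 0.619). UBE2C, the ubiquitin-conjugating enzyme of the anaphase-promoting complex, had 29.4 and 61.3 CPM in the controls and 16.5 and 42.8 CPM in knockdown, with ratios of 0.562 and 0.699. CDC20, its coactivator, had 46.9 and 136 CPM in the controls and 35.0 and 97.7 CPM in knockdown, with ratios of 0.747 and 0.718. Knockdown 2 lay above control 1 for all 3, and their edgeR adjusted p-values were between 0.354 and 0.685.

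The genes of the midzone and cytokinesis and of mitotic chromosomes stood lower than the cyclins in both pairs. ANLN, the contractile ring scaffold anillin, had 163 and 368 CPM in the controls and 73.8 and 237 CPM in knockdown, with ratios of 0.453 (0.415 to 0.494) and 0.645 (0.616 to 0.675). ECT2, the exchange factor that activates RhoA at the cleavage site, had 85.4 and 165 CPM in the controls and 37.6 and 104 CPM in knockdown, with ratios of 0.440 and 0.633. PRC1, the midzone microtubule crosslinker, had 70.0 and 196 CPM in the controls and 35.2 and 133 CPM in knockdown, with ratios of 0.502 and 0.677. In each, knockdown 1 was the lowest library and control 2 the highest.

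TOP2A, the topoisomerase that untangles sister chromatids, had 143 and 359 CPM in the controls and 56.4 and 239 CPM in knockdown, with ratios of 0.394 (0.357 to 0.434) and 0.666 (0.636 to 0.697). MKI67, which encodes the proliferation marker Ki-67, a coat protein of mitotic chromosomes, had 179 and 434 CPM in the controls and 90.1 and 287 CPM in knockdown, with ratios of 0.504 and 0.661. Both had the order of libraries that most of the 34 genes shared. FOXM1, the transcription factor of many of these genes, had 53.8 and 156 CPM in the controls and 48.5 and 130 CPM in knockdown, with ratios of 0.902 (0.797 to 1.02) and 0.828 (0.776 to 0.884). FOXM1 overlaps ITFG2 and RHNO1 in the RefSeq annotation.

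Because the 34 genes shared a shift between libraries, each was also taken as a share of their summed counts, a description added after the values were seen. A share shows unequal difference within the set and not that any gene was constant. BIRC5 held 0.867% and 1.18% of the sum in control and 2.45% and 2.32% in knockdown, and CENPA held 0.242% and 0.228% in control and 0.422% and 0.607% in knockdown. In total, 9 genes had both knockdown shares above both control shares, namely BIRC5, CENPA, MAD2L1, CCNB1, FOXM1, CCNA2, BUB1B, NUSAP1 and TPX2. Both knockdown shares were below both control shares in 7 genes, namely MKI67, ANLN, ECT2, TOP2A, ESPL1, PLK1 and AURKB. The shares of the other 18 overlapped between the groups. No counting interval was computed for the shares, and some separations were narrow. NUSAP1 held 2.08% of the sum in knockdown 2 and 2.06% in control 1. By CPM, 27.5% of all tested genes had both knockdown libraries above both control libraries and 26.8% below. Of the 34 genes 0 were above and 1 below by CPM. Shares within the set are another measure, for which no background was computed. The counts of 9 and 7 of 34 are therefore not read as an excess. PLK1 held 3.003% and 3.26% of the sum in control and 2.52% and 2.17% in knockdown, and CCNB1 3.45% and 4.06% in control and 5.13% and 5.03% in knockdown.

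**Figure D5:**
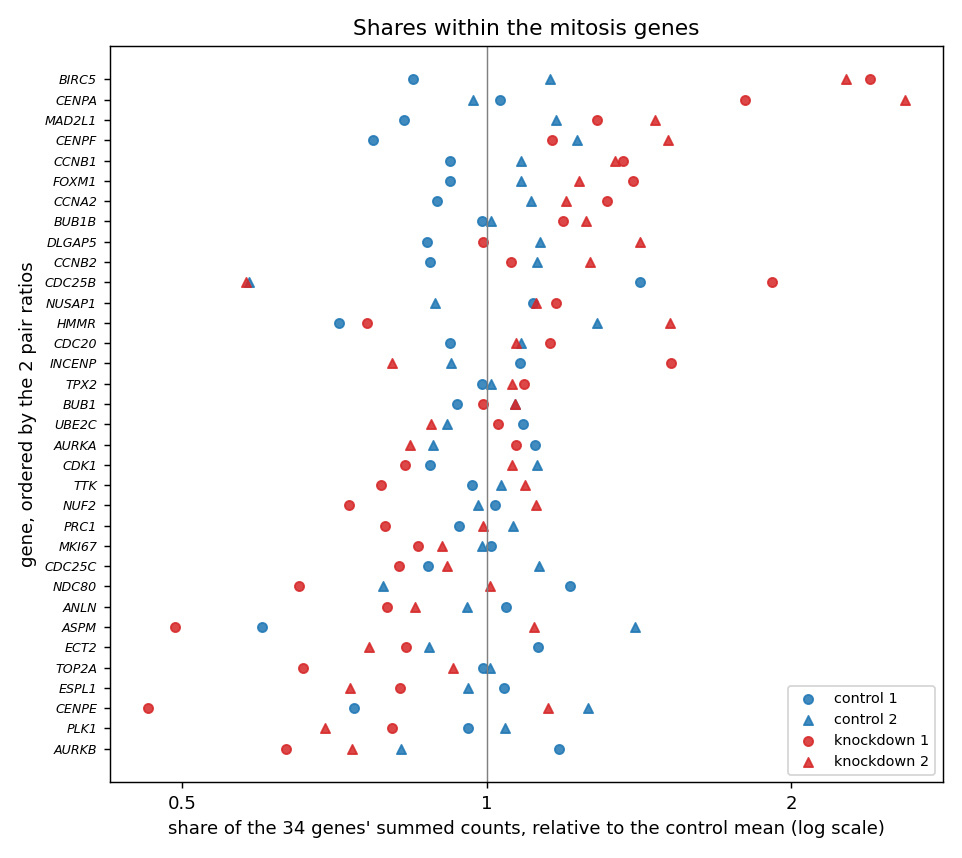
Share of each gene in the summed counts of the 34 mitosis genes, relative to its mean share in the control libraries (x axis, log scale), for control (blue) and knockdown (red) libraries of replicate 1 (circles) and 2 (triangles). Both red symbols of BIRC5 and CENPA lie right of their blue symbols, and 18 genes overlap between the groups.

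A further 124 mitosis genes in 7 lists were set beside these, of which 123 were tested and 1, ENSA, was called. HAUS7 had too few counts to be tested. ENSA, a phosphoprotein that restrains the phosphatase PP2A-B55 in mitosis, rose from 54.2 and 64.7 CPM in control to 146 and 150.1 CPM in knockdown (log2 fold change 1.32, SE 0.22, edgeR adjusted p = 0.0396). The median log2 fold change of the 123 was −0.29, with 88 negative values, and −0.25 and −0.28 within the pairs. In 81 of them the level was higher in replicate 2 at an edgeR adjusted p under 0.05, and in 4 lower, and 59 had the order of libraries that 31 of the 34 genes had. The share with that order was thus lower in the wider set, though still above the 7.88% of all tested genes, and the difference between the sets was not tested.

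The lists differed in how many of their values were negative. Of 13 CDK1 regulators 12 had a negative value, with a median of −0.53, and PKMYT1, a kinase that inhibits CDK1, had 9.29 and 23.4 CPM in the controls and 3.80 and 8.61 CPM in knockdown (log2 fold change −1.39, edgeR adjusted p = 0.193). Of 18 condensin, cohesin and securin genes 16 were negative with a median of −0.34, and SMC2, a condensin ATPase, had 42.9 and 71.1 CPM in the controls and 21.2 and 29.4 CPM in knockdown (−1.17, edgeR adjusted p = 0.0998), while PDS5A, a cohesin regulator, stood at −0.70. Of 33 other kinetochore and centromere genes 23 were negative with a median of −0.35, CENPK standing at −1.79 and ZW10, which recruits dynein to kinetochores, at 0.86. Of 21 spindle, centrosome and cytokinesis genes 18 were negative with a median of −0.36, and the augmin subunits HAUS6 and HAUS5 stood at −1.08 and −0.54.

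Of 8 other checkpoint and passenger genes 5 were negative with a median of −0.27, and TRIP13, an ATPase that remodels MAD2, stood at −1.50 and SGOL2, a protector of centromeric cohesin, at −0.86. The 18 subunits and partners of the anaphase-promoting complex did not lean lower, with 12 positive values and a median of 0.09. Among them FBXO5, an inhibitor of the complex also known as EMI1, stood at −0.99 and the subunit ANAPC13 at 0.74. The 12 genes of mitotic gene transcription had a median of −0.08, with TFDP1 at 0.66 and E2F4 at 0.46. None of these genes other than ENSA passed the edgeR test, and 8 of the 123, ENSA included, had an unadjusted p under 0.05, against 24% of all tested genes. Here too the difference between the replicate numbers enters the spread within each group.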

How the data were processed

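RNA of 4 MDA-MB-231 libraries, 2 labelled control and 2 labelled siRNA knockdown of hTrmt13, was analysed from the deposited raw read counts per gene symbol. The submitters' processing notes name STAR 2.5.2b, HTSeq 0.6.1, cutadapt and limma without their roles, with builds GRCh37 and hg19. Annotation, strand setting and filters were not known here. All 34 genes and the lists were chosen with earlier results of these data known.

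Groups were read from the labels. The main test used edgeR 4.0.16 (R 4.3.3) with TMM scaling, filterByExpr (minimum count 10, minimum total 15), the quasi-likelihood test without covariates and Benjamini-Hochberg adjustment over 13022 genes. The replicate term came from a fit with group and replicate number. Log2 ratios within pairs used a prior count of 2, and pair ratios carry 95% exact (Clopper-Pearson) intervals. At totals of 9777267 to 13098985 counts per library, the 34 genes held 16 to 5610 counts each. The test was also run on simulated counts, which for the group comparison held no shift by replicate number. That run does not show the power of the test for the 34 genes.

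All 34 genes are reported. From each further list up to 2 called genes, or otherwise the 2 with the smallest p, were named. In the CDK1 list PKMYT1 was added beside the 1 called gene after its value was seen. The rule for promoters took up to 4 genes with the CHR closest to the start, and the other 6 sites were added after seeing the positions. Bases after the start were found in GENCODE transcripts for 26 of 28 windows. Alternatives were other scalings and filters, DESeq2 1.42.0, limma-voom (limma 3.58.1), a replicate block and leaving out each library.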

Additional observations from a re-analysis of the deposited data

How the results depend on the processing

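The finding that 33 of the 34 genes were higher in replicate 2 held with DESeq2 size factors, upper-quartile scaling, library size alone, no filter, a mean of at least 5 CPM, the DESeq2 Wald test and limma-voom. With those alternatives the median log2 fold change of the 34 genes for the knockdown stayed between −0.62 and −0.49, and 0 were called except with no filter on low counts, where 5 were (PLK1, ESPL1, ANLN, ECT2 and TOP2A, all lower). Counts over all genes were 1949 of 18632 (10.5%) with no filter and 1129 of 13022 (8.67%) with the DESeq2 Wald test, against 389 of 13022. Of the other mitosis genes 13 and 2 were called in these fits.

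Deviations of equally numbered libraries from their group means correlated across all genes (r = 0.639), as a hint from the data only, since the labels do not say what a number stands for. With the replicate block 23 of the 34 genes were called, 22 lower and 1 higher (BIRC5), where the block called 20.8% of all genes lower and 19.3% higher. The 11 not called were CCNA2, CCNB1, CCNB2, NUSAP1, HMMR, DLGAP5, BUB1B, MAD2L1, CENPA, CENPF and FOXM1. The median log2 fold change with the replicate block was −0.60, and 48 other mitosis genes and 5227 genes in all were called.

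Leaving out each library in turn gave 678 to 935 genes (5.05% to 6.93% of those tested), 1 to 9 of the 34 genes and 1 to 12 other mitosis genes called, and medians from −1.62 to 0.35. Log2 fold changes then kept their sign in CDC25B, PLK1, AURKA, AURKB, ESPL1, ANLN and ECT2. The others changed sign, with these ranges: CCNA2 −1.22 to 0.72, CCNB1 −1.15 to 0.81, CCNB2 −1.54 to 0.73, CDK1 −1.89 to 0.45, CDC25C −1.91 to 0.29, TPX2 −1.43 to 0.37, NUSAP1 −1.25 to 0.29, HMMR −2.11 to 1.16, ASPM −2.80 to 0.94, DLGAP5 −1.64 to 0.85, BUB1 −1.60 to 0.42, BUB1B −1.31 to 0.58, TTK −1.92 to 0.33, MAD2L1 −1.29 to 1.04, CENPA −0.69 to 1.48, CENPE −2.81 to 0.67, CENPF −1.47 to 1.14, NDC80 −2.03 to 0.20, NUF2 −1.99 to 0.27, INCENP −0.95 to 0.13, BIRC5 −0.39 to 1.70, CDC20 −1.39 to 0.50, UBE2C −1.46 to 0.0169, PRC1 −1.92 to 0.26, TOP2A −2.16 to 0.0503, MKI67 −1.77 to 0.0774 and FOXM1 −1.12 to 0.73. In each of these fits 1 number is absent from a group, and its part in the sign changes was not tested. HMMR and CENPA had the fewest counts (16 to 138 and 36 to 226), which limits what could be seen for them.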
